A study of Mus musculus with 12 samples.

Results

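The genes described here encode the proteins of the cytosolic ribosome, measured in gastrocnemius muscle of mice that had received gut microbiota from sedentary or trained donors. Members were chosen by name: a gene belonged if its symbol was Rpl or Rps followed by a number, or was Rplp0, Rplp1, Rplp2 or Rpsa, and if a transcript cluster (a set of array probes read as 1 transcript) carried that symbol alone. Symbols beginning with Rps6k, the S6 kinases, and pseudogenes marked -ps were left out. This gave 63 genes in 219 transcript clusters, out of 19938 genes and 28944 transcript clusters on the array. The study asked whether the gut microbiota of trained mice changes the muscle of the animals that receive it. Recipients were male germ-free Tsl;ICR[GF] mice, 11 weeks old by the labels, fed a high-fat diet and given donor feces repeatedly by gavage, with muscle taken 1 week after the first gavage. The 6 recipients from sedentary donors are called RS, the 6 recipients from trained donors RT, and 250 ng of total RNA per mouse went onto 1 array (Affymetrix Mouse Gene 1.0 ST). Mice of a group shared cages and donor feces, so cage and donor sample cannot be told apart from donor training, and p-values measure only the spread between these 12 mice.

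A ribosome is built from a large and a small subunit, each a core of ribosomal RNA covered by many small basic proteins. The small subunit (Rps genes) decodes the mRNA, and the large subunit (Rpl genes) joins the amino acids. Ribosomal protein mRNAs begin with a stretch of pyrimidines, the TOP start, through which mTORC1 and Larp1 tune their translation. In muscle, the making of ribosomes sets how much protein a fiber can produce and is known to follow loading and feeding. Of the 63 members, 54 are ribosomal proteins proper, 33 of the large and 21 of the small subunit. A further 7 were counted as paralogs by their symbols: Rpl3l, Rpl7l1, Rpl10l, Rpl32l, Rpl39l, Rps4l and Rps27l. Paralogs are copies with a restricted or partial role, but RefSeq lists Rps4l as a transcribed pseudogene. The symbols of Rps19bp1, which encodes a binding partner of Rps19, and of Rps23rg1, a retrogene, match the rule, although neither is a ribosomal protein. Another 20 genes of the family, Rpl3, Rpl11 and Rpl32 among them, occurred only in transcript clusters annotated with several genes and were not analysed here.

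RefSeq promoter windows of assembly GRCm38.p6, 250 bases before and 50 from each annotated start, were found for 51 of the 63 members. The stretches printed here run 5′ to 3′ from 70 bases before the first annotated start that has a window and include 30 bases from it. They belong to members called higher in RT (Rpl10, Rpl28, Rps9, Rps21), called lower (Rps3a1, Rpl41, Rpl37a) or not called (Rps6, Rpl3l), so that the start regions can be read beside the direction of the genes. Capitals mark CGGAAGT on either strand, the core bound by ETS factors such as GABP. They also mark CTTTCC, a short pyrimidine run, on the printed strand, which reads as the RNA does. CAGCTG, an E-box of the kind bound by myogenic factors, is marked as well.
Rpl10, chrX:74270746-74270845, plus strand: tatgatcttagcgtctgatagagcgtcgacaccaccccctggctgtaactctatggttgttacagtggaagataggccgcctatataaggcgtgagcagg
Rpl28, chr7:4792895-4792994, plus strand: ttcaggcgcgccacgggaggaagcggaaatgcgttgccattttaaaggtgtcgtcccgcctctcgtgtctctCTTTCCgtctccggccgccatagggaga
Rps9, chr7:3703971-3704070, plus strand: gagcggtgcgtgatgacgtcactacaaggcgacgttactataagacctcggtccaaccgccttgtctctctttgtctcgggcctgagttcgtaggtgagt
Rps21, chr2:180257309-180257408, plus strand: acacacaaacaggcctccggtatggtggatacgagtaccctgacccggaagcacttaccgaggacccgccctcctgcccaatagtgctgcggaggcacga
Rps3a1, chr3:86142639-86142738, minus strand: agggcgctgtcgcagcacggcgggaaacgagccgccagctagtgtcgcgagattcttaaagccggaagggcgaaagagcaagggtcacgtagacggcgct
Rpl41, chr10:128549139-128549238, minus strand: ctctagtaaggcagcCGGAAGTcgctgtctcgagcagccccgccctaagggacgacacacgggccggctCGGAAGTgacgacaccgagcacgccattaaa
Rpl37a, chr1:72711190-72711289, plus strand: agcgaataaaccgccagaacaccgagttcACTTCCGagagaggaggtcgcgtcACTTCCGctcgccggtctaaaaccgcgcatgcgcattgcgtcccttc
Rps6, chr4:86857338-86857437, minus strand: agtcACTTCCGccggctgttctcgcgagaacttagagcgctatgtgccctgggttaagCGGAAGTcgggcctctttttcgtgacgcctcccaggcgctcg
Rpl3l, chr17:24727756-24727855, plus strand: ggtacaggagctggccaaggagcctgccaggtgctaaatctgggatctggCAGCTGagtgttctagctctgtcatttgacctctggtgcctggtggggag
In these stretches CGGAAGT lay in Rpl41, Rpl37a and Rps6, 2 copies in each, CTTTCC lay in Rpl28 and CAGCTG in Rpl3l. At the annotated start, Rpl10, Rpl41, Rpl37a and Rps3a1 did not open with a pyrimidine run. An annotated start is therefore not taken as the TOP start. Over the full windows, CGGAAGT was found in 18 of 51 members (35.3%), against 7.2% of 27025 genes with a window. Among members it was present in 1 of 8 genes called higher, 2 of 5 called lower and 15 of 38 not called. CTTTCC was found in 33.3% of members against 16% of all genes, and CTTTTC, searched on the same strand as CTTTCC, in 25.5% against 12.9%. GGGCGG, the core of a GC box, was found on either strand in 58.8% of members against 38.2% of all genes. CAGCTG was rarer in members, 5.88% against 18.3%. A gene counted if any of its windows held the letters at any position, also in the 250 bases before the start. The shares of CTTTCC and CTTTTC are therefore not shares of TOP starts. These letters are a description of the windows and mark no proven site.

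All 12 arrays showed a muscle profile: the mean log2 signal of 10 skeletal muscle markers lay between 12.2 and 12.5 in RS and at 12.4 in every RT mouse, and 0 of the 10 were called. Markers of other cells in the tissue were higher in RT in 8 of 8 fibroblast and matrix genes (mean of the list 7.73 to 8.93 in RS, 8.90 to 9.28 in RT), 6 of 6 macrophage genes (4.90 to 5.48 against 5.76 to 6.24), 4 of 4 endothelial genes (6.46 to 7.12 against 7.09 to 7.54), 3 of 4 adipocyte genes (3.93 to 4.4 against 4.25 to 5.73), 3 of 4 tendon genes (5.36 to 6.31 against 6.18 to 6.56) and the 1 erythrocyte gene measured. Of 4 lymphocyte markers 0 were higher and 1 was lower, and of 4 testis markers 0 were called. No value in the table was at 0; its lowest was 0.53. Ribosomal proteins are made in all of these cells, and in a bulk sample fewer cells of a type and less RNA per cell cannot be told apart. The part of these cells in the changes below was not tested. The SD of all signals on an array, its spread, was lower on RS-4 (1.97) and RS-6 (1.99) than on the other 10 arrays (2.06 to 2.15). RS-4 and RS-6 held the lowest value of a member more often than the other arrays, in 14 and 24 of the 63 genes, and RS-1, a sedentary recipient, held the highest value of all mice in 19.

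Ribosomal protein genes moved in both directions, and by small amounts. Calls were made in limma over all transcript clusters and needed both a raw p under 0.05 and an adjusted p (Benjamini-Hochberg) under 0.1. A gene stood by its transcript cluster of highest mean signal. Of the 63 genes, 12 were higher in RT (background 13.9% of all genes), 5 were lower (background 10.7%) and 46 were not called. At an unadjusted p under 0.05 alone, 27 of 63 (42.9%) passed, against 32.6% of all genes. Among bright genes, those with a mean log2 signal of 8 or more, 38.6% of members passed, against 36.3% of all. Counted in transcript clusters, 32.4% of members and 32.6% of the array passed. The changes ran from a fall of 0.50 (Rpl32l) to a rise of 0.48 (Rpl10) on the log2 scale, with a median of 0.10 against 0.01 over all genes. By transcript cluster, 29 of 219 were higher (background 11.9%) and 12 were lower (background 13%). The number called higher depended on single mice: it was 22 without RS-1, 7 without RS-3, 6 without RS-4, RS-5, RT-3 or RT-4, and 5 without RS-6, RT-1 or RT-6. The count over the whole array moved as well, from 3445 transcript clusters higher to 4573 without RS-1, 3517 without RS-3 and between 2360 and 2866 without 1 of the other mice just named. Without both RS-4 and RS-6 it was 3 (Rps14, Rplp1 and Rpl14), with 3 lower (Rpl32l, Rps3a1 and Rpl24), beside 1649 higher and 1791 lower over the array. The counts also changed with the scaling, in the members and over the array. Quantile normalization of the deposited values gave 6 members higher and 8 lower, beside 2785 and 2757 transcript clusters over the array. Cyclic loess gave 4 and 7, beside 2770 and 2816. There were 25 and 4 after each array was centered on its median, beside 5883 and 2414.

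**Figure D1:**
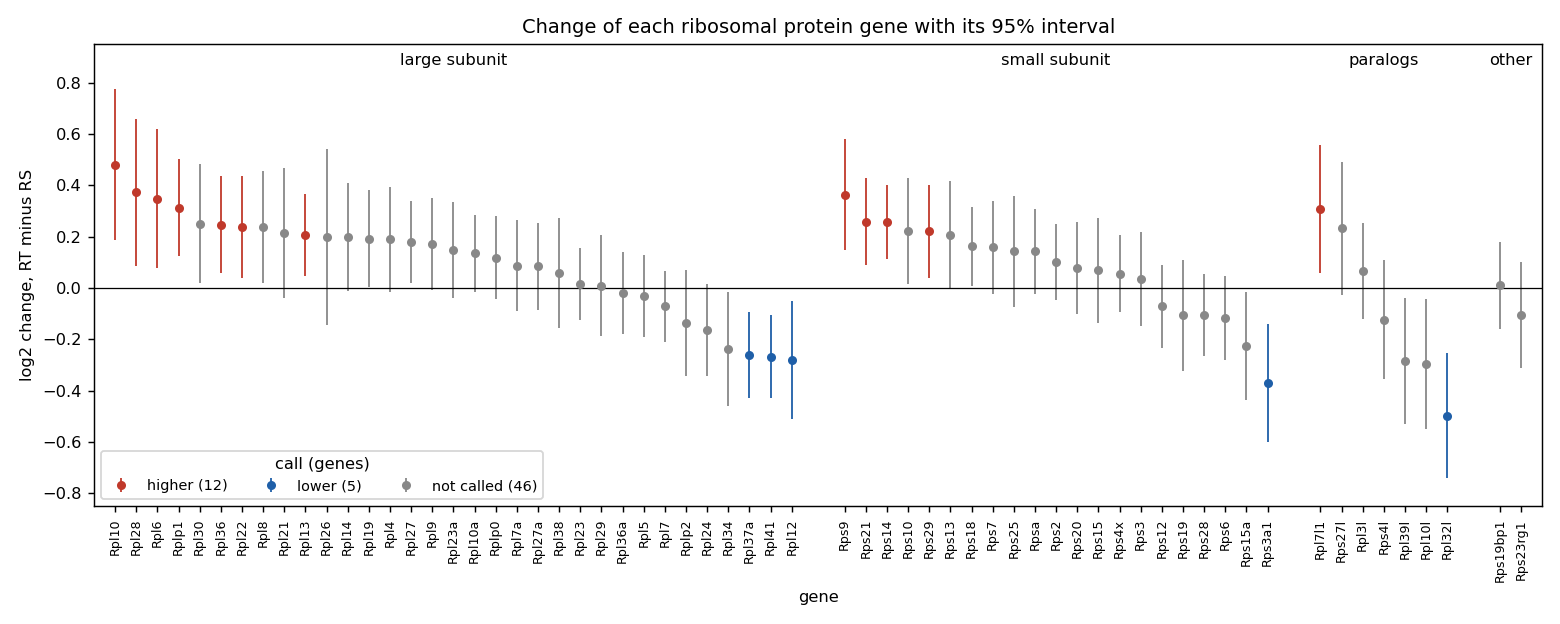
Log2 change (RT minus RS, vertical axis) of each of the 63 genes with its 95% interval from limma, grouped by subunit along the horizontal axis, 6 mice per group. Red genes were called higher (12), blue lower (5) and grey not called (46); all but 1 of the called rises and all but 1 of the called falls are ribosomal proteins proper.

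The brightness of a transcript cluster mattered to how these counts compare with the array. Of the 63 genes, 44 had a mean log2 signal of 8 or more, compared with 887 of all genes. Among those 44, 10 were higher (background 23.6% of bright genes) and 2 were lower (background 3.83%), and their median change of 0.14 equalled that of all bright genes to 2 decimals. Among the 19 dimmer members 2 were higher (background 13.4% of dim genes) and 3 were lower (background 11%), with a median of −0.11 against 0.0017. The bright members thus had about the share of rises that bright genes had in general. A signal depends on the probes of a transcript cluster, so signals of different genes were not set against each other. The RT mice all lay above the RS mice in 1 member gene, Rps14 (background 3.36% of genes), and below in 2, Rpl41 and Rpl37a (background 2.13%). By transcript cluster, 2 of 219 lay above (background 2.69%) and 7 lay below (background 3.1%); the 7 are 3 rows of Rpl41 with identical values, 1 of Rpl37a and 3 of Rps28.

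**Figure D2:**
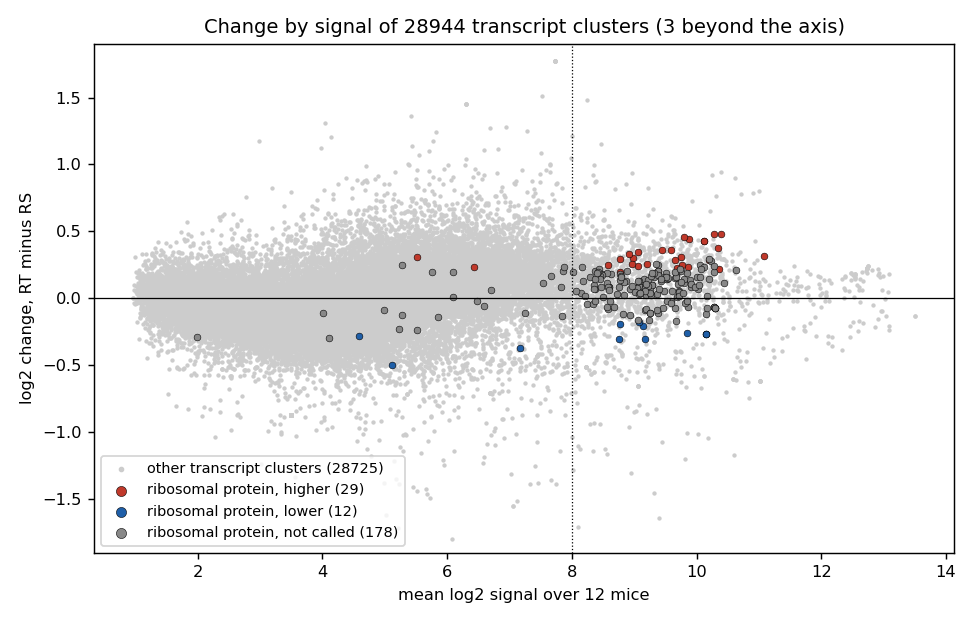
Log2 change (RT minus RS, vertical axis) against the mean log2 signal over 12 mice (horizontal axis) for 28944 transcript clusters, with 3 beyond the vertical axis. The 219 ribosomal protein transcript clusters are outlined, red where called higher (29), blue where lower (12) and dark grey where not called (178); most lie right of the dotted line at a signal of 8, within the range of other transcript clusters of like signal.

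Among large subunit proteins 7 of 33 were higher and 3 were lower in RT, with a median change of 0.15, against backgrounds of 13.9% higher and 10.7% lower over all genes and 23.6% and 3.83% over bright genes. Rpl10, which joins the large subunit late and is needed for its release into translation, had log2 signals of 9.61 lowest, 10.1 median and 10.6 highest in RS, and 10.36, 10.7 and 10.77 in RT. The highest RS mice reached into the RT range, and the low tail was formed by RS-6 and RS-4. Its mean was higher by 0.48 ± 0.14 (SE, n = 6 per group, adjusted p = 0.0303), and all 6 of its transcript clusters were called higher. These clusters followed each other closely from mouse to mouse, so they do not count as separate measurements. Without both RS-4 and RS-6 the difference was 0.30 (adjusted p = 0.134). Rplp1, an acidic protein of the flexible stalk that draws elongation factors to the ribosome, ran from 10.67 through 10.9 to 11.15 in RS and from 11.13 through 11.3 to 11.32 in RT. The groups met only where the highest RS mouse passed the lowest RT mouse, and the difference of 0.31 ± 0.09 had an adjusted p of 0.0276. Rplp0, the base of that stalk, differed by 0.12 ± 0.08 (adjusted p = 0.293), and Rplp2, the partner of Rplp1, by −0.14 ± 0.10 (adjusted p = 0.347). The stalk proteins therefore did not share a call in their brightest transcript clusters. In the other cluster of each, Rplp0 was called higher by 0.29 (adjusted p = 0.0652) and Rplp1 was not called (0.16, adjusted p = 0.203). Rplp2 had only 1 cluster, with a mean signal of 5.86.

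Rpl28 and Rpl6, proteins of the outer surface of the large subunit, were higher by 0.37 ± 0.14 (adjusted p = 0.0703) and 0.35 ± 0.13 (adjusted p = 0.0749). Both had a wide RS group, from 9.60 to 10.56 in Rpl28 and from 8.46 to 9.29 in Rpl6, and a narrow RT group, from 10.39 to 10.66 and from 9.09 to 9.42. Rpl36 was higher by 0.25 and Rpl13 by 0.21, as was Rpl22, an RNA-binding protein with roles outside the ribosome, by 0.24. Rpl22 was chosen after its values were seen. Each of these 5 calls was lost without both RS-4 and RS-6, where the rise was 0.23 in Rpl22, 0.19 in Rpl36, 0.17 in Rpl13, 0.18 in Rpl28 and 0.17 in Rpl6. The calls were lost in the same way for Rps9 (0.22, adjusted p = 0.121), Rps21 (0.22, adjusted p = 0.133), Rps29 (0.13) and Rpl7l1 (0.21). Rpl5, which travels with the 5S ribosomal RNA and can bind Mdm2 when free, differed by −0.03 ± 0.08 (adjusted p = 0.798) in its brightest transcript cluster.

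Among small subunit proteins 4 of 21 were higher and 1 was lower, with a median change of 0.10, beside the same backgrounds (13.9% and 10.7% of all genes, 23.6% and 3.83% of bright genes). Rps14, a protein of the platform where the mRNA leaves, was the 1 member gene whose brightest cluster lay above the RS range in every RT mouse. Its signals were 8.97 lowest, 9.09 median and 9.16 highest in RS, and 9.27, 9.33 and 9.39 in RT. The highest RS mouse stayed under the lowest RT mouse in both of its transcript clusters. The difference was 0.26 ± 0.07 (adjusted p = 0.0219) in one and 0.30 (adjusted p = 0.0182) in the other. Without both RS-4 and RS-6 it was 0.26 (adjusted p = 0.0455), while cyclic loess between arrays brought it to 0.13 (adjusted p = 0.294).

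Rps9, which lies at the entry of the mRNA and helps the accuracy of decoding, ran from 8.94 through 9.32 to 9.54 in RS and from 9.46 through 9.65 to 9.70 in RT. The ranges overlapped by 1 RS mouse above the lowest RT mouse, and the difference was 0.36 ± 0.10 (adjusted p = 0.0275). Its other transcript cluster, of lower signal, changed by −0.02 (adjusted p = 0.892), so the call rests on 1 set of probes. Rps21 was higher by 0.26 ± 0.08 (adjusted p = 0.0403) and Rps29, a zinc-binding protein, by 0.22 ± 0.09 (adjusted p = 0.0901). Rps21 ranged from 8.68 to 9.0 in RS and from 8.97 to 9.23 in RT. Rpsa, which also serves as a laminin receptor precursor, differed by 0.14 ± 0.08 (adjusted p = 0.213). The mRNA of Rps6, whose protein is the substrate of the S6 kinases, differed by −0.12 ± 0.08 (adjusted p = 0.312). Rps6 was called lower by 0.21 after a further quantile normalization and by 0.23 after cyclic loess between arrays.

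**Figure D3:**
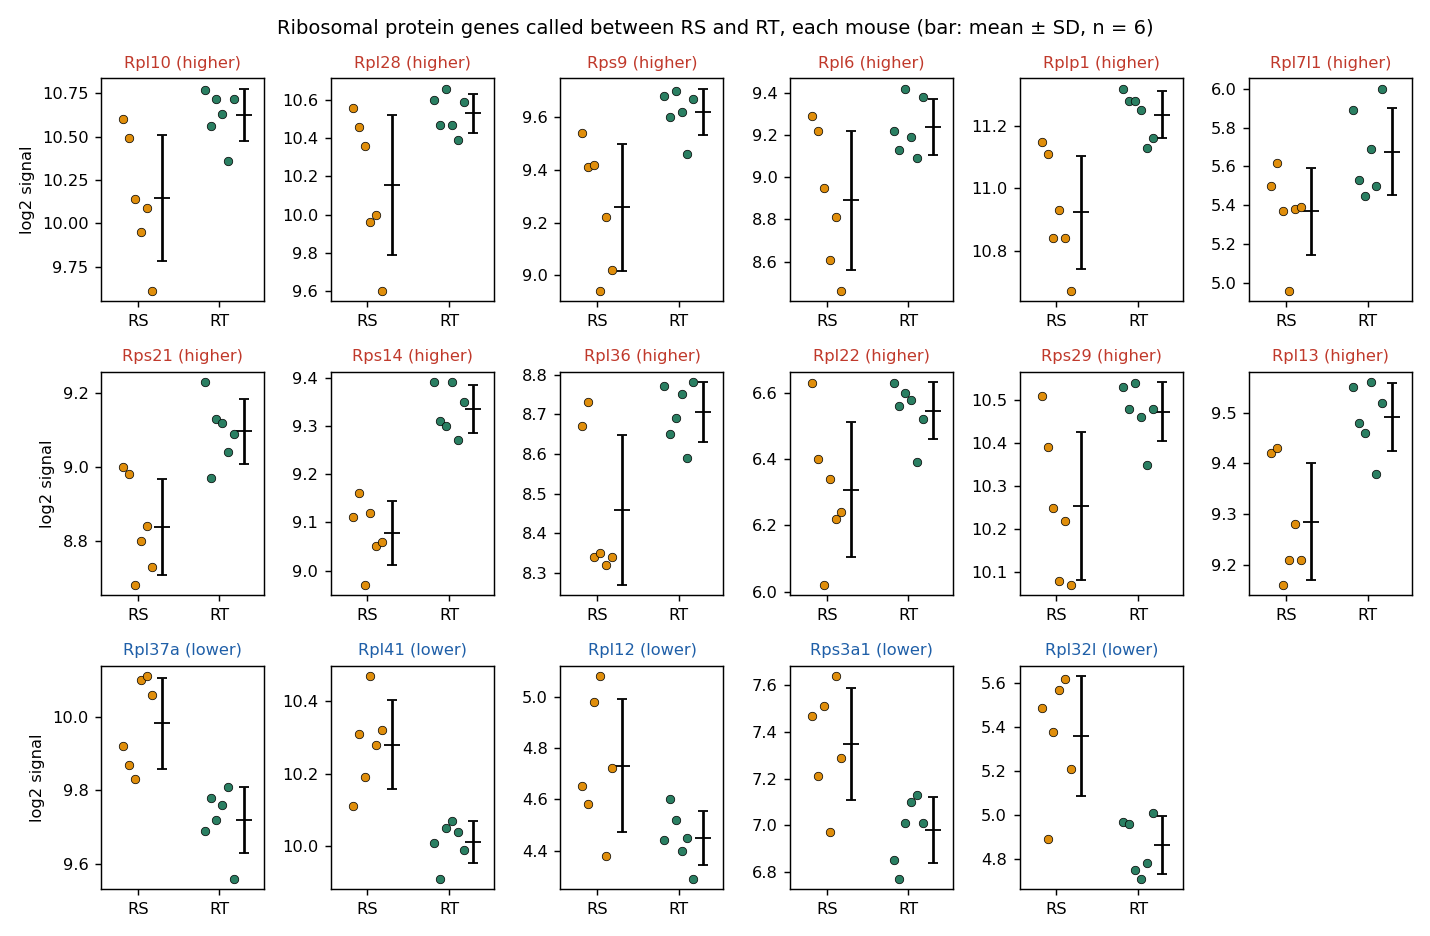
Log2 signal (vertical axis, a scale of its own in each panel) of the 17 called genes in each of 6 RS mice (orange) and 6 RT mice (green), with the mean and SD of each group as a bar. The groups do not overlap in Rps14, Rpl37a and Rpl41; in most genes called higher the RS mice are spread and 1 or more reach the RT range.

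The members that fell were Rpl32l, Rps3a1, Rpl12, Rpl41 and Rpl37a. Rpl41, a very short and strongly basic protein at the joint of the subunits, ran from 10.11 through 10.3 to 10.47 in RS and from 9.91 through 10.03 to 10.07 in RT. No RT mouse reached the RS range, and the difference was −0.27 ± 0.08 (adjusted p = 0.0285). Rpl37a, a zinc-finger protein of the large subunit, ran from 9.83 through 9.99 to 10.11 in RS and from 9.56 through 9.74 to 9.81 in RT. Here, too, the groups did not overlap, with a difference of −0.26 ± 0.08 (adjusted p = 0.0366). Without both RS-4 and RS-6 these differences were −0.21 in each, with adjusted p-values of 0.103 in Rpl41 and 0.134 in Rpl37a. Both genes carry 2 copies of CGGAAGT in the printed stretches, as does Rps6, which was not called. Over the full windows CGGAAGT was present in 2 of 5 members called lower, 15 of 38 not called and 1 of 8 called higher. A link of these letters to the direction of a gene was not tested.

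Rps3a1, a protein of the small subunit near the mRNA exit, ran from 6.97 through 7.38 to 7.64 in RS and from 6.77 through 7.01 to 7.13 in RT. The groups overlapped through 1 low RS mouse, and the difference was −0.37 ± 0.11 (adjusted p = 0.0325). Rpl12, at the base of the stalk, was lower by 0.28 ± 0.11 (adjusted p = 0.0856) in its only transcript cluster, whose mean signal was 4.59. That call was kept under 6 of 23 alternative settings, while those of Rps3a1 and Rpl32l were kept under all 23. Of the 23 settings 12 left out 1 mouse each. Rps28, a short protein of the small subunit, was not called in its brightest transcript cluster (−0.11, adjusted p = 0.34), but 4 of its 7 transcript clusters were called lower, and in 3 of these every RT mouse lay below every RS mouse. Its largest fall was 0.30 (adjusted p = 0.00922).

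Of the 7 paralogs 1 was higher (background 13.9% of all genes), 1 was lower (background 10.7%) and 5 were not called, with a median of −0.12. Rpl3l, which takes the place of Rpl3 in the ribosomes of skeletal and heart muscle, had signals of 9.10 lowest, 9.37 median and 9.60 highest in RS, and 9.38, 9.44 and 9.47 in RT. The RT mice lay inside the RS range. The difference was 0.07 ± 0.09, with a 95% interval from −0.12 to 0.25 (adjusted p = 0.627), so that neither a small rise nor a small fall is excluded by these mice. Its sign turned after cyclic loess (−0.06), with the spread of the array as a covariate (−0.07) and without both RS-4 and RS-6 (−0.03). Its parent Rpl3 had no transcript cluster of its own, so the exchange of the pair was not measured.

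Rpl32l, a gene whose product resembles Rpl32, was the largest fall among the members. It ran from 4.89 through 5.44 to 5.62 in RS and from 4.71 through 4.87 to 5.01 in RT. Only RS-2, at the low end of its group, lay within the RT range, and the difference was −0.50 ± 0.11 (adjusted p = 0.0111). Rpl7l1, a nucleolar protein of large subunit processing, was higher by 0.31 ± 0.12 (adjusted p = 0.0857), beside −0.07 ± 0.07 (adjusted p = 0.466) in Rpl7. Rpl10l, which stands in for Rpl10 during male meiosis, differed by −0.29 ± 0.12 (adjusted p = 0.1) at a mean signal of 4.12, beside the called rise of Rpl10. Rpl39l, likewise known from male germ cells, differed by −0.28 ± 0.12 (adjusted p = 0.101) at a mean signal of 1.98. The 4 testis markers lay between 3.36 and 3.91 in RS and between 3.45 and 3.62 in RT as a mean. Rps27l, a target of p53, differed by 0.23 ± 0.12 (adjusted p = 0.2). Rps4l, which RefSeq lists as a transcribed pseudogene, differed by −0.12 ± 0.11 (adjusted p = 0.454), beside 0.06 ± 0.07 (adjusted p = 0.616) in Rps4x.

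Transcript clusters of the same gene did not always carry the same call. Several clusters were present for 39 genes and 1 for 24, and in 15 genes some but not all clusters were called, with 0 genes called in both directions. Ribosomal protein genes have many near-identical processed copies in the genome, so probes of these clusters may read more than 1 locus, and 19 member rows had values identical to another row. In Rpl10a 3 of 4 clusters were higher, although its brightest cluster was not called (0.14, adjusted p = 0.196). Rplp0 had 1 of 2 higher, Rpl21 had 2 of 9, Rpl19 1 of 7 and Rps18 1 of 7, again without the brightest. In Rpl5 1 of 5 was lower, by 0.30 (adjusted p = 0.035). Of genes called by their brightest cluster, Rpl36 had 1 of 9 clusters called, Rpl13 2 of 9, Rpl28 1 of 5, Rps29 2 of 4 and Rpl6 2 of 3. Rps21 and Rplp1 had 1 of 2 each. Changes of both signs without a call, and of at most 0.18 in size, were seen within Rpl7, Rpl7a, Rpl9, Rpl23, Rpl27, Rps2, Rps6, Rps12 and Rps15.

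RS mice differed from each other more than RT mice did. The SD over the 6 mice of a group had a median over members of 0.18 in RS and 0.09 in RT, and it was larger in RS in 56 of 63 genes (88.9%). The same held for 69.8% of all genes and 89.9% of all bright genes, so the members stood near the bright genes in this respect. Over all 12 mice the SD was largest in Rpl10 (0.36), Rpl26 (0.34) and Rpl32l (0.33). It was smallest in Rpl23, Rpl7 and Rps4x, with 0.05, 0.05 and 0.07, and none of these 3 was called. The median deviation of the 63 genes from their means was 0.11 in RS-1, 0.07 in RS-2, −0.03 in RS-3, −0.09 in RS-5, −0.16 in RS-6 and −0.17 in RS-4. In RT it was −0.03 in RT-5 and between 0.02 and 0.11 in the others. RS-1 thus stood as high as the highest RT mouse, RT-1, and had the highest RS value in 31 of the 44 bright members. Whether the low arrays or RS-1 bear on the calls beyond the counts without them was not tested.

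**Figure D4:**
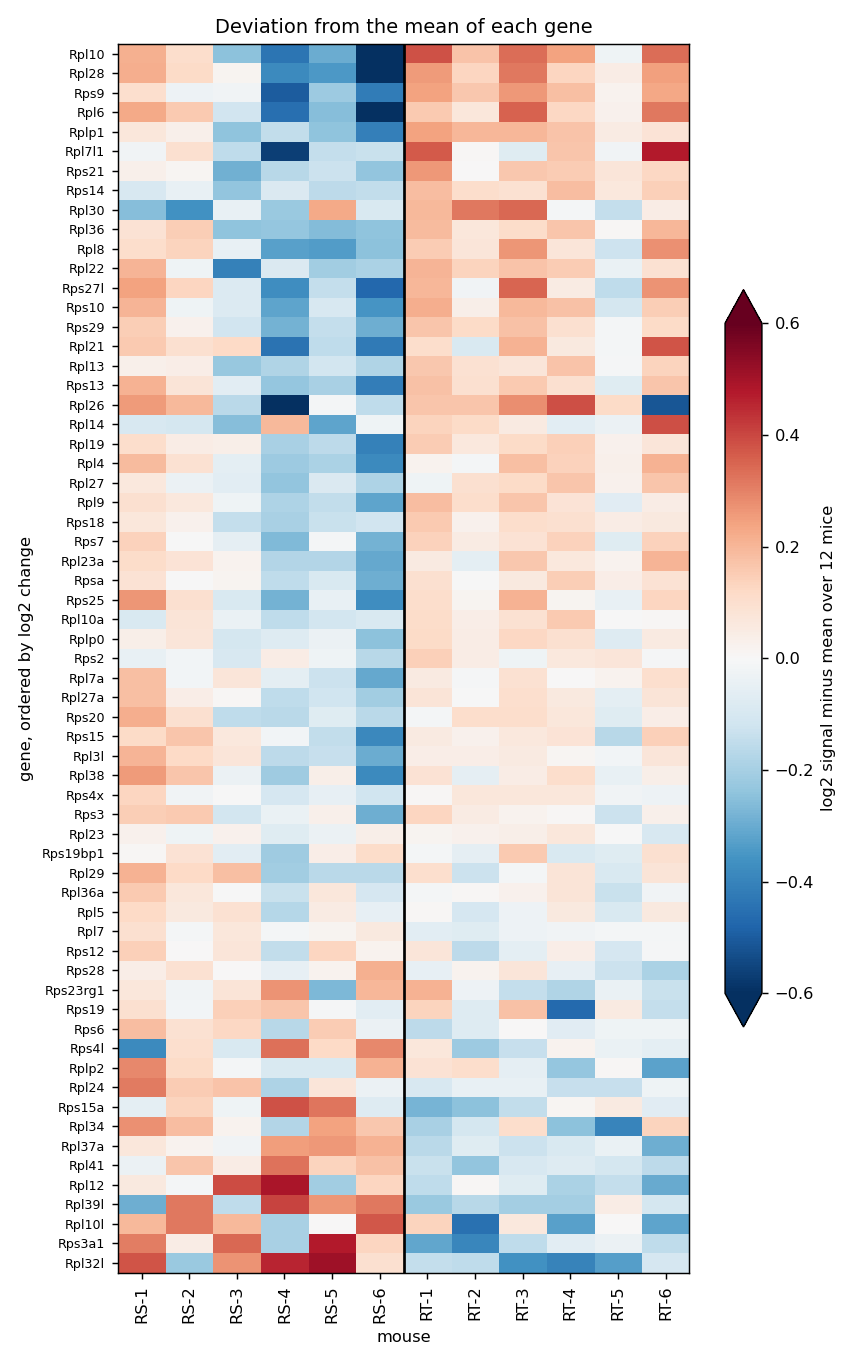
Log2 signal minus the mean over 12 mice (color) for 63 genes (vertical axis, ordered by log2 change) in each mouse (horizontal axis, RS left and RT right of the line). RS-4 and RS-6 are low (blue) across most of the upper genes, RS-1 is high (red), and RT mice differ less from each other.

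Genes that make ribosomes were read beside the members. Of 72 measured genes of ribosome biogenesis 12 were higher and 1 was lower, with a median of 0.12. RNA polymerase I factors gave 3 of 14 higher, among them Rrn3, the factor that brings the polymerase to ribosomal DNA (0.39 ± 0.13, adjusted p = 0.0544), with Polr1c at 0.25 and Taf1b at 0.25. Ubtf, which holds ribosomal DNA open, differed by 0.07 (adjusted p = 0.466). Small subunit assembly gave 3 of 24 higher: Riok2, a kinase of late maturation (0.37 ± 0.11, adjusted p = 0.0299), Bysl (0.33) and Nop14 (0.28). Nop14 ran from 5.68 to 5.87 in RS and from 5.89 to 6.18 in RT, without overlap. Large subunit assembly gave 4 of 27 higher: Brix1 (0.38), Sbds, which clears the subunit for joining (0.32 ± 0.09, adjusted p = 0.0253), Ebna1bp2 (0.25) and Pak1ip1 (0.20). Of the core proteins of small nucleolar particles, Nhp2 (0.30) and Nop56 (0.22) were higher and Gar1 was lower (−0.23). These counts stood beside backgrounds of 13.9% of all genes higher and 10.7% lower.

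Other genes with a TOP start, or that bring a ribosomal protein fused to ubiquitin or a like protein, gave 4 higher and 1 lower of 17 measured, with a median change of 0.12 and a median signal of 8.54, where 23.6% of bright genes were higher and 3.83% lower (13.9% and 10.7% of all genes). Eef1a1, the factor that brings aminoacyl-tRNA to the ribosome, had signals from 9.44 through 10.3 to 10.51 in RS and from 10.84 through 11.1 to 11.19 in RT. The groups did not overlap, and the difference of 0.90 ± 0.15 (adjusted p = 0.00194) exceeded that of every ribosomal protein gene. Pabpc1, the cytosolic poly(A)-binding protein, was higher by 0.45 ± 0.11 (adjusted p = 0.0167), Btf3 by 0.29 and Fau, which encodes the small subunit protein Rps30 as a fusion, by 0.27. Gas5, a noncoding host gene of small nucleolar RNAs, was lower by 0.20 (adjusted p = 0.0793). Eef2 differed by 0.11 (adjusted p = 0.351), Tpt1 by 0.02 (adjusted p = 0.871) and Larp1 by 0.12 (adjusted p = 0.356). Of the 6 ribosomal S6 kinase genes measured, 0 were called by limma and 0 had an unadjusted p under 0.05. Their median was 0.04, and Rps6kb2, a p70-type kinase, differed by 0.01 ± 0.08 (adjusted p = 0.942).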

How the data were processed

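Gastrocnemius RNA of 12 mice was hybridized to 12 arrays of 1 color, 6 RS and 6 RT. The values deposited by the authors are log2 signals of 28944 transcript clusters, normalized by RMA; the methods name both RMA and its SST variant, and no version is given in the submitters' processing notes. No genome build is stated for the array, so the coordinates belong to RefSeq windows only. The table held 0 columns of other samples. Groups were taken from the sample labels. The number of arrays limits the precision.

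Gene symbols came from the platform annotation: 21789 transcript clusters had 1 symbol, 1621 several and 5534 none. Those with several or none were not named, which left 239 clusters with a ribosomal protein symbol unnamed. A gene stood by its single-symbol transcript cluster with the highest mean signal over all arrays.

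The groups were compared in R 4.3.3 with limma 3.58.1 (lmFit, then eBayes), two-sided and over the whole table; every adjusted p is from limma with Benjamini-Hochberg adjustment. On simulated data with 200 of 28944 transcript clusters changed, the fit recovered 99% of changes of 1 and 71% of changes of 0.5 on the log2 scale. The simulated noise was independent between clusters, and far fewer clusters were changed than the 3445 and 3764 called here. Changes under 0.5, the size of most member changes, were not simulated, so these shares do not give the power of the member calls. The planned exact permutation test of Rpl3l minus Rpl3 could not be run, since Rpl3 had no transcript cluster of a single symbol.

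The members and the gene lists were chosen with earlier results of these data known. Named genes follow a rule: Rpl3l; the stalk and surface proteins; Rps6 and Rpl5; the paralogs and their parents; the 8 largest called rises and all called falls; genes whose clusters differ in call or direction; and the 3 largest and smallest SDs. Genes of the other lists are named where called or known as central to the list. Letters searched in promoters were chosen after the windows were seen.

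Same-number arrays were not paired: correlations of their deviations from the group means lay between −0.24 and 0.11, and 0 RS arrays were closest to the RT array of their own number. Alternatives were further quantile normalization, cyclic loess, centering, array weights, the spread of an array as a covariate, the methods' test, a trend with robust eBayes, leaving out dim clusters or arrays, a replicate block, a stricter threshold and the mean of all clusters of a gene.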

Additional observations from a re-analysis of the deposited data

Results flagged for a closer look

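Rpl26, a protein of the large subunit near the exit of the nascent chain, had 1 RT mouse far from the others: RT-6 was at a log2 signal of 5.58, and the nearest RT mouse was at 6.21, so the gap made up 0.70 of the range of the group. The groups of 41 named genes were examined in this way, 82 in all, and 1 stood out, where chance would set apart about 1 in 20. Rpl26 was among the named genes for its large SD over all mice, which a far value itself raises, so the flag is only a description. Rpl26 differed by 0.20 between RT and RS (adjusted p = 0.408) and was not called.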

How the results depend on the processing

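The 12 genes called higher and 5 called lower became 6 and 8 after further quantile normalization. They became 4 and 7 after cyclic loess, 25 and 4 after centering, and 1 and 4 with the array spread as a covariate. Without both RS-4 and RS-6 they were 3 and 3, and at an adjusted p under 0.05 they were 5 and 4. With the mean of all clusters of a gene 8 were higher and 8 were lower. Leaving out 1 mouse at a time gave 5 to 22 higher. The median change of 0.10 became 0.018 after further quantile normalization, 0.011 after cyclic loess and 0.017 without both RS-4 and RS-6. It became 0.175 after centering and −0.0070 with the array spread. Over all transcript clusters, 3445 higher and 3764 lower became 5883 and 2414 after centering, which moved the median of all clusters to 0.06. After further quantile normalization the counts over the array became 2785 and 2757, and after cyclic loess 2770 and 2816. They became 732 and 888 with the array spread and 1649 and 1791 without both RS-4 and RS-6. At an adjusted p under 0.05 they were 2092 and 2307. The replicate block gave 8 members higher and 5 lower, and 2873 and 3174 transcript clusters; the arrays share only a number.

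Signs turned in genes that were not called. After quantile normalization Rpl23 was −0.077, Rps15 −0.040, Rps2 −0.0057 and Rps4x −0.025. After cyclic loess Rpl23 was −0.095, Rpl3l −0.057, Rpl7a −0.050, Rps15 −0.045, Rps2 −0.012 and Rps4x −0.065. After centering Rpl5 was 0.043, Rpl7 0.0033 and Rps12 0.0033. With the array spread Rpl21 was −0.033, Rpl3l −0.074, Rpl7a −0.027, Rps15 −0.058, Rps27l −0.0070, Rps4l 0.084 and Rps4x −0.0079. Without both RS-4 and RS-6 Rpl3l was −0.031, Rps15 −0.015 and Rps4l 0.00083. Rps15 ranged from −0.002 (without RS-6) to 0.108 (without RT-5) when 1 mouse was left out. The causes were not tested. Of the called genes named by rule, 0 changed sign. Rpl32l and Rps3a1 kept their call in 23 of 23 settings, Rplp1 and Rps14 in 22, Rpl10, Rps9, Rpl37a and Rpl41 in 21, and Rps21 in 20. Of these 23 settings 12 left out 1 mouse each, so the settings are not independent. Rpl10, Rps9, Rpl37a and Rpl41 lost their call without both RS-4 and RS-6. They also lost it with the array spread (limma adjusted p = 0.386, 0.319, 0.281 and 0.241), as did Rplp1 (0.218). Rpl28 and Rpl6 kept it in 11, Rpl36 and Rpl7l1 in 9, Rpl13 and Rps29 in 8 and Rpl12 in 6. Of the 12 rises, 2 were called again without both RS-4 and RS-6. Signal over background was not given, so dim clusters have no stated detection limit.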
